A study of Mus musculus with 12 samples.

Results

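The mitochondrial and integrated stress response genes described here are the 10 mouse genes Atf4, Atf5, Ddit3, Trib3, Chac1, Asns, Psat1, Mthfd2, Gdf15 and Fgf21, taken by gene symbol from a table of 33641 symbols. All 10 were in the table, and 9 of them passed the filter on low values and were tested. Fgf21 did not. The RNA came from the myocardium (heart muscle) of 12 male C57BL/6 wild-type mice. There were 3 mice in each of 4 groups: sham surgery with vehicle, sham surgery with prednisone, myocardial infarction (MI) with vehicle, and MI with prednisone. Prednisone is a synthetic glucocorticoid; it was injected once a week at 1 mg/kg for 6 weeks at lights-on, beginning 2 weeks after surgery in mice about 10 weeks old, and vehicle-treated mice were also injected weekly. Hearts were taken 24 hours after the last injection from mice about 16 weeks old, and the labels do not say which part of the infarcted heart was sampled.

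The integrated stress response is a shared reaction to amino acid shortage, misfolded protein, lack of heme, viral RNA and damaged mitochondria. Kinases for each of these stresses phosphorylate the translation factor eIF2α, which slows protein synthesis overall and favours translation of a few mRNAs, ATF4 and ATF5 among them. ATF4 then switches on genes for amino acid synthesis and import, for CHOP (the product of Ddit3) and for the hormone-like proteins FGF21 and GDF15, which are secreted from heart and skeletal muscle with defective mitochondria. Since much of this control acts on translation, mRNA levels report only part of it.

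The best known DNA element of this response is the C/EBP-ATF response element. Its core was searched as TGATGNAA on both strands, in windows of 250 bases before to 50 after the RefSeq start sites (GRCm38.p6), and 3.97% of 32851 such windows held it. Counted by gene, 1219 of 27025 genes (4.51%) had a match in a window. The 10 genes had 13 windows between them, and a match was found in a window of 4 genes (Asns, Chac1, Fgf21 and Trib3). These 4 stretches are shown because they carry the element's letters, 5′ to 3′ on the gene's strand with the match in capitals. The Asns match begins 23 bases before the start site (chr6:7693217-7693242, minus strand), downstream of the start of the GENCODE transcript Asns-201. The Chac1 match begins 193 bases before it (chr2:119351022-119351081, plus strand) and the Fgf21 match 139 bases before it (chr7:45615601-45615660, minus strand). The Trib3 match begins 14 bases after the start (chr2:152344030-152344055, minus strand), but upstream of the start of the GENCODE transcript Trib3-201.
Asns: cccagccacaTGATGAAActtcccgc
Chac1: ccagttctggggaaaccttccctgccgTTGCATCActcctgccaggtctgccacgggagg
Fgf21: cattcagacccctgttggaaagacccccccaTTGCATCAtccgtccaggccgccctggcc
Trib3: agctcaggtTTACATCAgccgggcgg

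The windows of Gdf15, Atf4, Atf5, Ddit3, Psat1 and Mthfd2 did not hold these letters, and bases outside the windows were not searched. Since the calls below fell mainly on Gdf15, Atf4, Atf5 and Ddit3, the bases before their start sites are shown as well, with capitals marking CCAAT on either strand, a common promoter box that 37.4% of all windows held. No match shown overlapped another. Gdf15 and Atf5 have 2 RefSeq start sites each, and these coincide with the ends of the GENCODE transcripts Gdf15-202 and Gdf15-201 and of Atf5-201 and Atf5-202. The stretches lie at chr8:70632457-70632556 (Gdf15-202), chr8:70632096-70632149 (Gdf15-201), chr7:44816659-44816758 (Atf5-201) and chr7:44815659-44815758 (Atf5-202), all on the minus strand. Those of Atf4 (chr15:80255054-80255183) and Ddit3 (chr10:127290673-127290772) are on the plus strand. The stretches differ in length. That of Gdf15-201 has 54 bases and leaves out an E-box (CACGTG) that begins 83 bases before the start. That of Ddit3 stops short of its RefSeq start site at 127290793.
Gdf15-202: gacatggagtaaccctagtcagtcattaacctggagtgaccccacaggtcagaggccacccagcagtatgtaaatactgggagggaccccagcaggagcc
Gdf15-201: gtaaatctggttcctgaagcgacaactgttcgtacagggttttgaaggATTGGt
Atf5-201: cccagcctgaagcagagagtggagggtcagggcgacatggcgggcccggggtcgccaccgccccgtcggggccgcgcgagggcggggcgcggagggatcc
Atf5-202: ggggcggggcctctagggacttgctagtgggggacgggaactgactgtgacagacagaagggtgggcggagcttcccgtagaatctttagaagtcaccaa
Atf4: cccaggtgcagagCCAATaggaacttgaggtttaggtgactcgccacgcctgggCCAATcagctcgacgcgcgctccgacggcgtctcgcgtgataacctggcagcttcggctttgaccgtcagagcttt
Ddit3: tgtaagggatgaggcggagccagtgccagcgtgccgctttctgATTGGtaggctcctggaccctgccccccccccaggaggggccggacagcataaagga

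Levels are in TPM, a share of the library's transcripts that corrects for transcript length and sums to 1000000 in each library. The number of reads behind the values is unknown. Between 11690 and 14307 genes reached 1 TPM per library. MI vehicle replicate 3 stood apart from the other libraries: it had the most genes at that level, and its median gene was 0.73 higher on the log2 scale than the sham vehicle mean, against 0.13 and 0.24 in the other MI vehicle libraries. The 4 lymphocyte markers summed to 160 TPM in it and to at most 11.1 TPM in any other library, and calls that depend on it are given also without it. All 8 cardiomyocyte markers were present. They summed to 23600 to 29500 TPM in MI vehicle hearts, below every other library. The sums were 33200 to 35200 TPM in sham vehicle, 34200 to 39600 TPM in sham prednisone and 34100 to 36900 TPM in MI prednisone. The markers did not move together between MI and sham. On the log2 scale of the deposited TPM, their changes under vehicle ran from -0.66 (Ryr2) to -0.02 (Actc1). Under prednisone Ryr2, Pln and Myh6 changed by -1.44, -0.76 and -0.44, and the others by -0.29 (Actc1) to 0.14 (Tnni3). The part of cardiomyocyte content in the results was not tested. Because a shift of the median like that in MI vehicle replicate 3 moves most genes at once, each change is given on TPM as deposited and, where it matters, after median-ratio rescaling, which divides each library by the median ratio of its genes to their mean over all libraries. On the deposited scale the median of all 13158 tested genes moved by 0.39 between MI and sham under vehicle, by -0.06 under prednisone, by -0.41 between prednisone and vehicle in MI and by 0.07 in sham (log2). In whole tissue, fewer cells of a type and less RNA per cell cannot be told apart.

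The 3 transcription factors were the most abundant of the 10 genes. Averaged over the 12 libraries, Atf4 stood at 49.6 TPM, Atf5 at 39.9 TPM and Ddit3 at 20.9 TPM. Gdf15 followed at 5.05 TPM, then Psat1 at 3.31, Mthfd2 at 3.18, Asns at 2.35, Trib3 at 1.83 and Chac1 at 1.76 TPM. The ranges of these last 6 over libraries overlapped. Fgf21 averaged 0.0405 TPM.

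**Figure D1:**
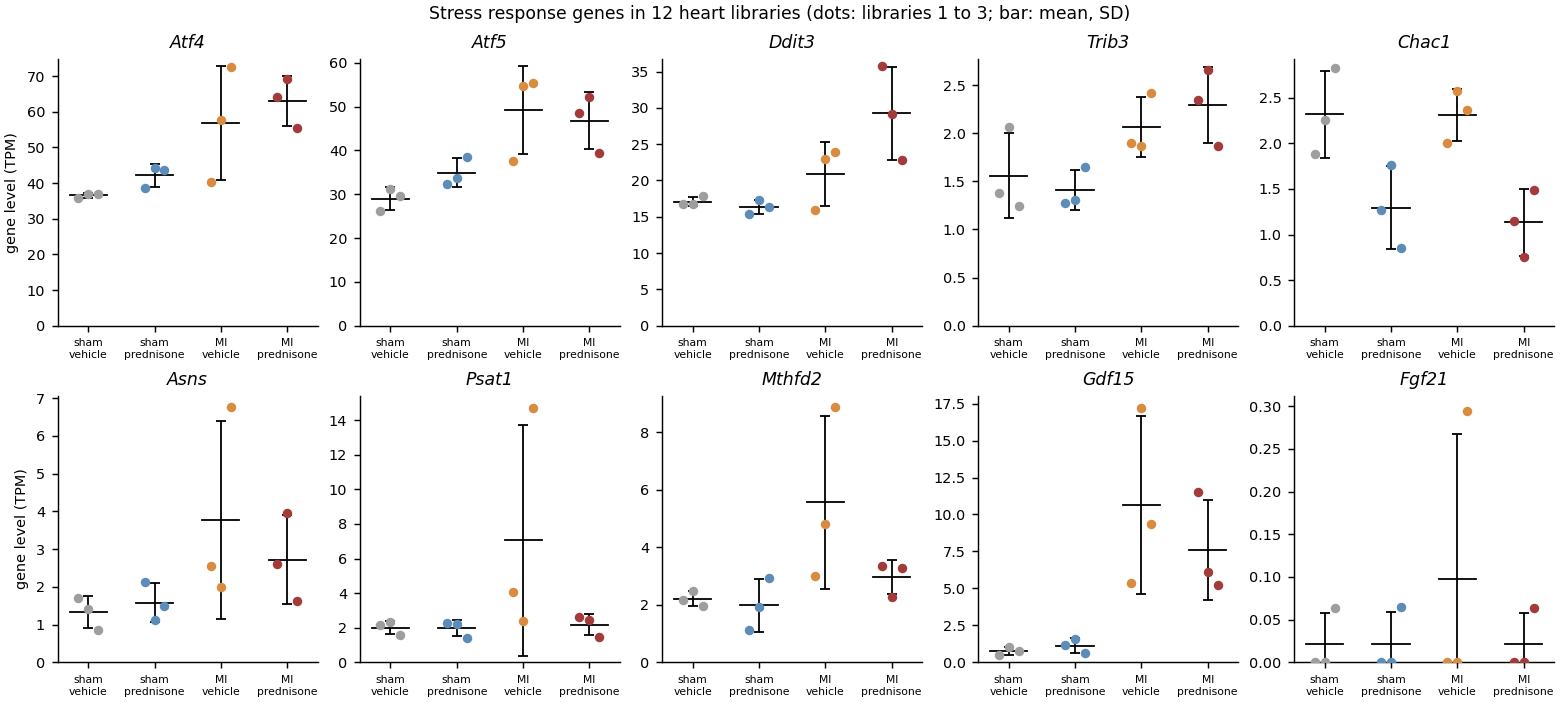
Level of each of the 10 stress response genes (vertical axes, TPM, each panel with its own scale from 0) in the 4 groups of 3 hearts; dots are libraries, horizontal bars are group means and whiskers are 1 SD. Gdf15 lies between 5.25 and 17.2 TPM in all 6 MI hearts and between 0.507 and 1.58 TPM in all 6 sham hearts.

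Gdf15, Atf4 and Atf5 were the genes called between MI and sham hearts of vehicle-treated mice, and all 3 were higher in MI. A gene was called when its adjusted p from limma, corrected by Benjamini-Hochberg over all tested genes, was under 0.05. This was 3 of 9 tested members, where 16% of all genes were called and 15.1% were called higher. After rescaling it was 1 of 9, Gdf15, where 7.44% of genes were called. Without sham vehicle replicate 1, sham vehicle replicate 3 or MI vehicle replicate 3, Gdf15 was likewise the 1 member called, where 1.28%, 0.912% and 7.34% of genes were. The median change of the 9 was 0.73 beside 0.39 for all genes, and 0.29 beside 0.02 after rescaling. The MI and sham values did not overlap for 6 of the 9, all higher, where 40.8% of all genes were higher without overlap. After rescaling this held for 2 of the 9, Gdf15 and Mthfd2, where 15.7% of all genes were.

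Under prednisone, Gdf15, Atf4 and Ddit3 were called, again all higher in MI. This was 3 of 9 members, where 16.8% of all genes were called but only 2.73% were called higher. After rescaling, 5 of the 9 were called, with Atf5 and Trib3 added, where 26% of genes were called and 11.7% were called higher. The median change of the 9 was 0.45 beside -0.06 for all genes, and 0.53 beside 0.03 after rescaling. For 5 of the 9 the values were higher without overlap, where 12.9% of all genes were. Without sham prednisone replicate 1 or without MI prednisone replicate 1, Gdf15 was the 1 member called, where 9.26% and 7.81% of genes were. Both comparisons of MI with sham use separate mice, and the difference between them was tested as an interaction. No member was called for it by limma, where 21.3% of all genes were called and 20.7% were called lower. None of the members had an unadjusted limma p under 0.05, where 5069 of all 13158 genes did. After rescaling, Ddit3 was called, where 10.1% of genes were.

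Between prednisone and vehicle in MI hearts, Chac1 was the 1 member called by limma, and it was lower with prednisone. For comparison, 37.4% of all genes were called and 34.9% were called lower. It was also the 1 member without overlap, where 42.6% of all genes were lower without overlap. The call was lost after rescaling, where 4 other members, Atf4, Atf5, Ddit3 and Trib3, were called higher with prednisone among 28.8% of genes called and 14.6% called higher. The median change of the 9 was -0.27 beside -0.41 for all genes, and 0.08 beside -0.02 after rescaling. The 4 atrial cardiomyocyte markers, all in the table, summed to 4330 to 6170 TPM in MI prednisone hearts, 2800 to 4110 TPM in MI vehicle hearts and 845 to 2690 TPM in sham hearts. Of these, Myl7, Sln and Myl4 were called higher with prednisone in MI, by 2.04, 2.03 and 1.98, and Nppa was not called (0.29). Between MI and sham under vehicle, Nppa was called higher (1.68). Myl7, Sln and Myl4 changed there by -0.80, -0.78 and -0.77 and were not called. The part of these 4 markers in the results was not tested. Between prednisone and vehicle in sham hearts limma called none of the 9 on either scale, where 0.114% of all genes were called as deposited and 0.122% after rescaling. Of the 9, Chac1 alone had an unadjusted limma p under 0.05, where 469 of all 13158 genes did. Atf4 and Atf5 were higher without overlap (15.6% of all genes were) and Chac1 was lower without overlap (2.58% of all genes were), of which Chac1 alone was so after rescaling.

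**Figure D2:**
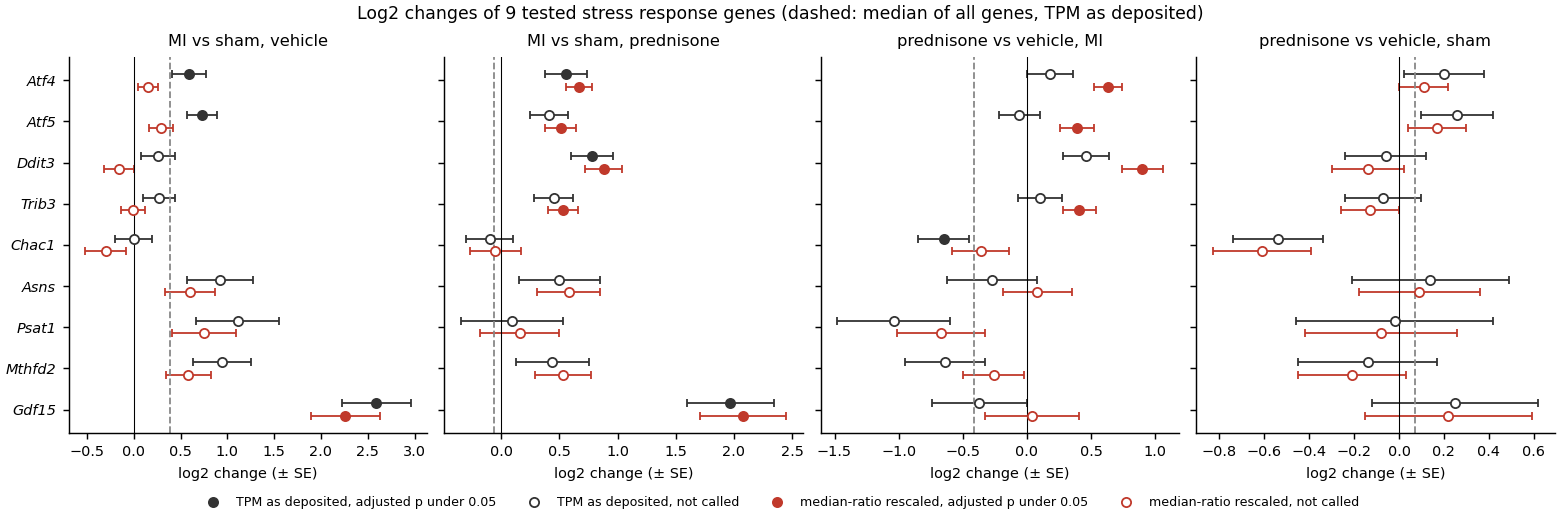
Log2 change of each of the 9 tested genes in 4 comparisons (horizontal axes, log2 of TPM + 1, points with SE; filled points have a limma adjusted p under 0.05); black points use TPM as deposited, red points the rescaled values, and the dashed line is the median of all genes on the deposited scale. Gdf15 is filled on both scales for MI against sham under vehicle and under prednisone, at changes of 1.97 to 2.59, while Atf4, Atf5, Ddit3 and Trib3 lie further right after rescaling in the comparison of prednisone with vehicle in MI.

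Atf4 (chr15:80255184-80257541, plus strand, GRCm38 as are all gene positions here) encodes the main effector of the response. Its level was 35.7, 37.0 and 36.9 TPM in the sham vehicle hearts, 38.5, 44.3 and 43.7 TPM in sham prednisone, 40.4, 57.8 and 72.4 TPM in MI vehicle, and 64.0, 69.3 and 55.5 TPM in MI prednisone. Every MI heart lay above every sham heart of its own treatment, but MI vehicle replicate 1, at 40.4 TPM, was within the range of the sham prednisone hearts. The means were 36.5 ± 0.715, 42.1 ± 3.18, 56.9 ± 16.0 and 62.9 ± 6.95 TPM (SD, n = 3 each). Between MI and sham, Atf4 rose by 0.59 ± 0.18 (log2, SE) under vehicle (limma adjusted p = 0.0458) and by 0.56 ± 0.18 under prednisone (limma adjusted p = 0.0485). Under vehicle the call held in 2 of 14 alternatives, whose adjusted p ran from 0.00368 to 0.428. It was lost without MI vehicle replicate 3 (0.40, limma adjusted p = 0.119) and without each of 4 other libraries, the 3 sham vehicle hearts and MI vehicle replicate 2. After rescaling the change was 0.15. Under prednisone the call held in 7 of 14 alternatives (limma adjusted p 0.00392 to 0.168), and the rescaled change was larger, 0.67 with a limma adjusted p of 0.00392. It was lost there without each library but MI prednisone replicate 3. Prednisone against vehicle in MI gave 0.18 as deposited (limma adjusted p = 0.438). The rescaled TPM in MI ran from 39 to 51.2 with vehicle and from 64.1 to 72.2 with prednisone. These did not overlap, and the rescaled change was 0.63 (limma adjusted p = 0.0037, with 0.0037 to 0.787 over the alternatives).

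Atf5 (chr7:44812256-44816658, minus strand) encodes a related factor, the mammalian counterpart of the worm protein that starts the mitochondrial unfolded protein response. Its level was 26.1, 31.3 and 29.6 TPM in sham vehicle, 32.3, 33.7 and 38.6 TPM in sham prednisone, 37.6, 54.6 and 55.3 TPM in MI vehicle, and 48.6, 52.1 and 39.5 TPM in MI prednisone. As for Atf4, MI and sham did not overlap within either treatment, and MI vehicle replicate 1 lay within the sham prednisone range. The means were 29.0 ± 2.66, 34.9 ± 3.3, 49.2 ± 9.99 and 46.7 ± 6.48 TPM (SD, n = 3 each). Under vehicle Atf5 rose by 0.73 ± 0.16 in MI (limma adjusted p = 0.0196). That call held in 7 of 14 alternatives (limma adjusted p 0.00304 to 0.225) and was lost without sham vehicle replicate 1 (0.65), sham vehicle replicate 3 (0.74) or MI vehicle replicate 3 (0.63, limma adjusted p = 0.0504). After rescaling the change under vehicle was 0.29. Under prednisone it was 0.41 ± 0.16 as deposited (limma adjusted p = 0.112) and 0.51 after rescaling (limma adjusted p = 0.0184, the lowest of 0.0184 to 0.326 over the alternatives).

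Ddit3 (chr10:127290774-127296288, plus strand) encodes CHOP, a factor associated with cell death under prolonged stress. Its level was 16.7, 16.7 and 17.8 TPM in sham vehicle, 15.4, 17.3 and 16.4 TPM in sham prednisone, 15.9, 22.9 and 23.9 TPM in MI vehicle, and 35.7, 29.2 and 22.8 TPM in MI prednisone. MI vehicle replicate 1 was at the sham level, and MI prednisone replicates 1 and 2 were above all other libraries. The means were 17.1 ± 0.664, 16.4 ± 0.942, 20.9 ± 4.35 and 29.2 ± 6.48 TPM (SD, n = 3 each). Under prednisone Ddit3 rose by 0.78 ± 0.18 in MI (limma adjusted p = 0.0126), and the call held in 10 of 14 alternatives (limma adjusted p 0.00398 to 0.109). It was lost without sham prednisone replicate 1 (0.74, limma adjusted p = 0.0518) or MI prednisone replicate 1 (0.63, limma adjusted p = 0.0612), and with a correction for transcript length (0.54, limma adjusted p = 0.0641). Under vehicle the change was 0.26 ± 0.18 (limma adjusted p = 0.256), and after rescaling it was -0.16. Prednisone against vehicle in MI gave 0.46 ± 0.18 (limma adjusted p = 0.057). After rescaling, MI hearts ran from 14.5 to 20.3 TPM with vehicle and from 26.3 to 40.3 TPM with prednisone, a change of 0.90 (limma adjusted p = 0.00395, with 0.00395 to 0.21 over the alternatives). Ddit3 was called in this comparison in 4 of 14 alternatives. Without MI vehicle replicate 3, its highest MI vehicle library, the deposited values gave 0.57 (limma adjusted p = 0.0375, where 31.6% of all genes were called). Without MI prednisone replicate 3, its lowest MI prednisone library, they gave 0.63 (limma adjusted p = 0.0198, where 31.1% of all genes were called). The interaction was 0.52 ± 0.25 as deposited (limma adjusted p = 0.146) and 1.05 after rescaling (limma adjusted p = 0.0264, with 0.0264 to 0.301 over the alternatives). MI prednisone replicates 1 and 2, the highest in Ddit3, had 24.6% and 21.6% of TPM in mitochondrially encoded RNA, against 35.9% in replicate 3. MI vehicle replicate 3 had 23.1%, with Ddit3 at 23.9 TPM as deposited and 14.5 TPM after rescaling. The part of this share in the result was not tested.

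Trib3 (chr2:152337422-152344032, minus strand) encodes a pseudokinase that binds ATF4 and CHOP and limits their activity. Its level was 1.38, 2.06 and 1.24 TPM in sham vehicle, 1.27, 1.31 and 1.65 TPM in sham prednisone, 1.9, 1.87 and 2.42 TPM in MI vehicle, and 2.35, 2.66 and 1.87 TPM in MI prednisone. Under prednisone the MI hearts lay above the sham hearts, and under vehicle the groups overlapped through sham vehicle replicate 2. The change between MI and sham was 0.27 ± 0.17 under vehicle (limma adjusted p = 0.232) and 0.45 ± 0.17 under prednisone (limma adjusted p = 0.106). After rescaling it was -0.01 under vehicle and 0.53 under prednisone, the latter with a limma adjusted p of 0.0152 against 0.0152 to 0.31 over the alternatives.

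Chac1 (chr2:119351229-119354381, plus strand) encodes an enzyme that breaks down glutathione and is among the most strongly induced targets of ATF4 in cultured cells. Its level was 1.88, 2.25 and 2.82 TPM in sham vehicle, 1.27, 1.76 and 0.854 TPM in sham prednisone, 2.0, 2.57 and 2.36 TPM in MI vehicle, and 1.15, 0.756 and 1.49 TPM in MI prednisone. All 6 prednisone hearts lay below all 6 vehicle hearts. The ratio of prednisone to vehicle means was 0.489 in MI and 0.556 in sham. In MI Chac1 fell by 0.65 ± 0.20 (limma adjusted p = 0.0267, with 0.0241 to 0.446 over the alternatives). In sham the change was -0.54 ± 0.20, with an unadjusted limma p of 0.02 and a limma adjusted p of 1. After rescaling, the values in MI overlapped (-0.36, limma adjusted p = 0.234), while those in sham still did not (-0.61). The call in MI held in 7 of 14 alternatives and was lost without MI vehicle replicate 2, MI prednisone replicate 1 or MI prednisone replicate 2, at a limma adjusted p of 0.0652, 0.0651 and 0.0922. The 2 effects of prednisone differed by -0.11 ± 0.28, with a limma adjusted p of 0.803. Between MI and sham the change was 0.00 ± 0.20 under vehicle and -0.10 ± 0.20 under prednisone.

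The 3 biosynthetic enzymes were all highest in MI vehicle replicate 3. Asns (chr6:7675169-7693254, minus strand), which makes asparagine, was at 1.7, 1.42 and 0.862 TPM in sham vehicle, 2.13, 1.11 and 1.48 TPM in sham prednisone, 2.54, 1.99 and 6.77 TPM in MI vehicle, and 2.6, 3.95 and 1.62 TPM in MI prednisone. Psat1 (chr19:15904678-15947337, minus strand), the second enzyme of serine synthesis, was at 2.15, 2.31 and 1.56 TPM, then 2.28, 2.22 and 1.43 TPM, then 4.06, 2.38 and 14.7 TPM, and then 2.65, 2.42 and 1.49 TPM in the same order of groups. Mthfd2 (chr6:83305691-83325908, minus strand), a mitochondrial enzyme of one-carbon metabolism, was at 2.18, 2.49 and 1.96 TPM, then 1.11, 1.91 and 2.95 TPM, then 2.99, 4.83 and 8.89 TPM, and then 3.34, 2.27 and 3.29 TPM. As deposited, the MI vehicle hearts all lay above the sham vehicle hearts for each enzyme, by a small margin for Psat1. After rescaling the groups overlapped for Asns, at a lowest MI value of 1.76 TPM and a highest sham value of 1.93 TPM, and for Psat1, at 2.11 and 2.44 TPM.

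With all libraries, limma called none of the 3 enzymes in any comparison, as deposited or rescaled. As deposited, the unadjusted limma p for MI against sham under vehicle was 0.0236 for Asns, 0.0277 for Psat1 and 0.0117 for Mthfd2. Between MI and sham under vehicle the change of Asns was 0.92 ± 0.35 (limma adjusted p = 0.0804), and without MI vehicle replicate 3 it was 0.50. That of Psat1 was 1.11 ± 0.44 (limma adjusted p = 0.087), and 0.47 without that library. That of Mthfd2 was 0.94 ± 0.31 (limma adjusted p = 0.0595), and 0.59 without it. Between prednisone and vehicle in MI, Psat1 changed by -1.04 ± 0.44 (limma adjusted p = 0.082) and, without that library, by -0.40. Psat1 passed the threshold in both comparisons when MI vehicle replicate 2 was left out (1.58 and -1.51). In those fits 12.1% and 36.5% of all genes were called. Mthfd2 passed it in both when MI vehicle replicate 1 was left out (1.25 and -0.95), where 42.8% and 47.7% of all genes were called. Each left-out library held the lowest MI vehicle value of that gene. Under prednisone the changes between MI and sham were 0.50 for Asns, 0.09 for Psat1 and 0.44 for Mthfd2, with groups that overlapped. The library with the highest enzyme levels is the one with lymphocyte markers at 160 TPM, all 4 of which were in the table, and their part in the result was not tested. Phgdh, which encodes the enzyme before Psat1 in serine synthesis and was named after its values were seen, was at 36 TPM in that library and between 0.781 and 9.46 TPM in the others.

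Gdf15 (chr8:70629393-70632456, minus strand) encodes a secreted member of the TGF-β superfamily that is released by stressed cells and acts on appetite through a brainstem receptor. Its level was 0.507, 1.03 and 0.783 TPM in sham vehicle, 1.2, 1.58 and 0.622 TPM in sham prednisone, 5.39, 17.2 and 9.33 TPM in MI vehicle, and 11.5, 6.13 and 5.25 TPM in MI prednisone. Every MI heart lay above every sham heart, and the MI hearts overlapped between treatments. The means were 0.774 ± 0.262, 1.13 ± 0.482, 10.6 ± 6.01 and 7.64 ± 3.4 TPM (SD, n = 3 each). The ratio of MI to sham means was 13.7 under vehicle and 6.76 under prednisone. On the log2(TPM + 1) scale, which understates changes of low genes, Gdf15 rose by 2.59 ± 0.37 under vehicle (limma adjusted p = 0.00526) and by 1.97 ± 0.37 under prednisone (limma adjusted p = 0.00528). Counted from the highest change of all 13158 genes, it ranked 22 and 44. The call held in 13 of 14 alternatives under vehicle (limma adjusted p 0.00122 to 0.0684) and in 14 of 14 under prednisone (0.0036 to 0.0287). It was lost under vehicle when only the 6 vehicle libraries entered the fit. Without MI vehicle replicate 3 the change was 2.61, and after rescaling the changes were 2.26 and 2.08. Prednisone against vehicle in MI gave -0.37 ± 0.37 as deposited and 0.04 after rescaling, and the interaction was -0.62 ± 0.52 (limma adjusted p = 0.394). The 6 fibroblast markers, all in the table, summed to 887 to 1190 TPM in MI vehicle hearts and to 323 to 560 TPM in the other 9. The 6 macrophage markers, also all in the table, summed to 511 to 1200 TPM in MI vehicle, 251 to 475 TPM in MI prednisone and 220 to 344 TPM in sham hearts. In the MI prednisone hearts the fibroblast sum overlapped the sham range of 365 to 497 TPM. Postn, which is among the 6 fibroblast markers, was called higher in MI under vehicle (2.30, limma adjusted p = 0.00532) and under prednisone (1.87, limma adjusted p = 0.00407), and under both it was called after rescaling (1.87 and 1.98). The remaining fibroblast markers were also called higher under vehicle as deposited, but none was called under prednisone. There Col1a1 changed by 0.14, Col1a2 by 0.04, Col3a1 by -0.25, Dcn by -0.37 and Pdgfra by -0.42. The part of these cells in the result was not tested.

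Fgf21 (chr7:45613886-45615490, minus strand) encodes the other secreted factor, an endocrine hormone made mainly by the liver. It was listed at 0 in 8 of the 12 libraries and at 0.0639, 0.0644, 0.294 and 0.0638 TPM in the third replicate of sham vehicle, sham prednisone, MI vehicle and MI prednisone. No library reached 1 TPM, so Fgf21 was not tested. No reads can be counted from TPM, so the level below which it would have been missed is unknown. Of the receptors, named here also where they were not called, Gfral, which binds GDF15 in the brainstem, was listed at 0 in all 12 libraries. Klb, the co-receptor of FGF21, reached 1.66 TPM in MI vehicle replicate 3, and neither passed the filter. Fgfr1, which pairs with Klb, rose in MI under vehicle by 0.85 ± 0.14 (limma adjusted p = 0.00892). Ret, which pairs with GFRAL, fell in MI under prednisone by 0.56 ± 0.17 (limma adjusted p = 0.0415).

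Gdf15 and Atf5 have transcripts from different start sites, whose upstream bases are shown above. Gdf15-202 made up 69.2% of Gdf15 TPM and Gdf15-201 made up 30.8%. Gdf15-202 ran from 0.197 to 0.481 TPM in sham vehicle, 0.622 to 1.2 TPM in sham prednisone, 4.84 to 10.4 TPM in MI vehicle and 3.5 to 8.36 TPM in MI prednisone. It rose in MI by 2.57 ± 0.31 under vehicle (limma adjusted p = 0.00719, where 2.84% of 27769 tested transcripts were called) and by 1.64 ± 0.31 under prednisone (limma adjusted p = 0.0036, where 22.3% were called). Gdf15-201 reached 6.78 TPM in MI vehicle replicate 2 but 0.546 TPM in replicate 1, which is within the sham range, and it was not called (limma adjusted p = 0.14 and 0.0548).

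Atf5-201, from the upstream start, made up 91.1% of Atf5 TPM and rose in MI under vehicle by 0.84 ± 0.17 (limma adjusted p = 0.0329). Atf5-202, from the start inside the gene, was at 4.39, 4.78 and 3.21 TPM in sham vehicle, 1.22, 1.76 and 3.13 TPM in sham prednisone, 3.21, 2.77 and 3.5 TPM in MI vehicle, and 5.39, 4.98 and 3.18 TPM in MI prednisone. Apart from MI vehicle replicate 2, every library of the other 3 groups lay above the sham prednisone hearts. Its change between MI and sham was -0.29 ± 0.25 under vehicle (limma adjusted p = 0.474), and under prednisone it rose by 0.89 ± 0.25 (limma adjusted p = 0.0264). The interaction was 1.18 ± 0.35 (limma adjusted p = 0.0406, where 18.7% of transcripts were called). The transcripts of a gene share most of their sequence, so the division of TPM between them is an estimate of the quantification.

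**Figure D3:**
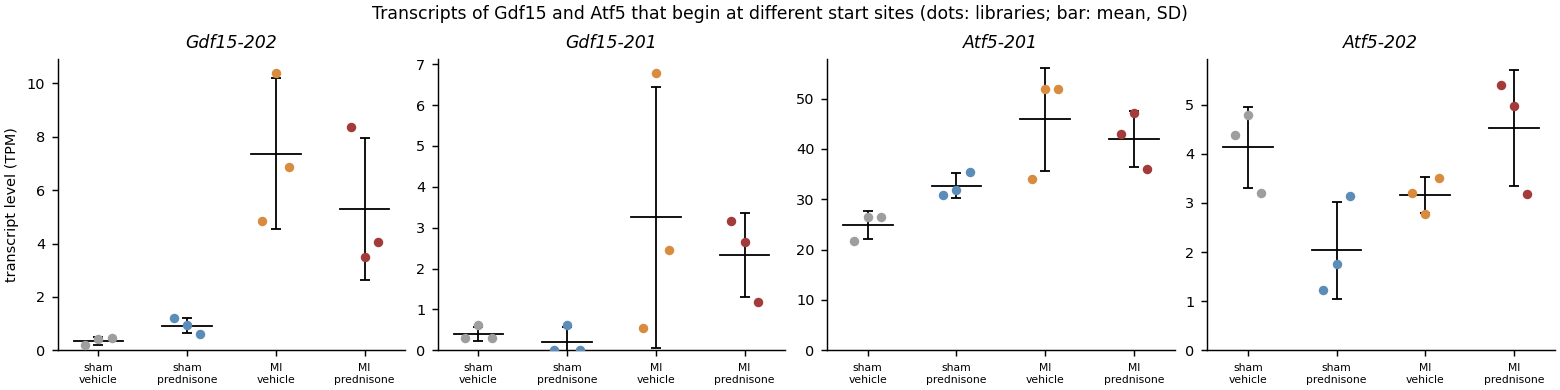
Level of the Gdf15 and Atf5 transcripts that begin at different start sites (vertical axes, TPM, each panel with its own scale from 0) in the 4 groups of 3 hearts; dots are libraries, bars are means and whiskers are 1 SD. Gdf15-202 is higher in every MI heart than in any sham heart, while Atf5-202 is highest in MI prednisone replicate 1, at 5.39 TPM.

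The wider pathway was described with 97 other genes in 8 lists, of which 90 passed the filter. Between MI and sham under vehicle 18 of the 90 were called, all higher, where 16% of all genes were called. Their median change was 0.46 beside 0.39 for all genes. The largest of these rises was that of Nupr1, a small chromatin protein induced by stress. It was at 9.17, 10.9 and 6.31 TPM in sham vehicle and 25.7, 53.3 and 55.1 TPM in MI vehicle, without overlap, a rise of 2.17 ± 0.36 (limma adjusted p = 0.00812). Of the 17 genes of endoplasmic reticulum stress 6 rose, among them the disulfide isomerase Pdia4 (1.01) and the co-chaperone Dnajc3 (0.81). Of 7 tested amino acid transporters 3 rose, Slc3a2 and Slc1a4 both by 0.85. The eIF2α kinases and regulators had 2 of 12 called, Impact (0.72) and the double-stranded RNA kinase Eif2ak2 (0.63). The serine, one-carbon and proline enzymes had 2 of 11 called, Shmt1 (0.74) and Pycr1 (0.57), and the cytosolic tRNA synthetases had 2 of 13, Nars (0.50) and Aars (0.47). Of the 14 mitochondrial chaperones and proteases none was called, and their median change was 0.05. After rescaling 2 of the 14 were called, the protease subunit Clpp and the prohibitin Phb2, both lower, and the median was -0.39 beside 0.02 for all genes. After rescaling 7 of the 90 were called, 3 higher and 4 lower, with Nupr1, Pdia4 and Fgfr1 as the higher ones, where 3.72% of all genes were called in each direction. The count of 18 went from 0 without sham vehicle replicate 3 to 47 without MI vehicle replicate 1, where 0.912% and 42.8% of all genes were called. It was 7 without MI vehicle replicate 3, where 7.34% of all genes were called. Those 7 were Nupr1 (1.99), Fgfr1 (0.77), Pdia4 (0.68), Impact (0.64), Shmt1 (0.54), Slc3a2 (0.51) and Dnajc3 (0.48). Of the other genes named here, Slc1a4 (0.67), Pycr1 (0.54), Eif2ak2 (0.45), Aars (0.34) and Nars (0.33) were not called without it.

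Under prednisone 26 of the 90 differed between MI and sham, 4 higher and 22 lower, where 16.8% of all genes were called, 2.73% higher and 14.1% lower. The median of the 90 was -0.12 beside -0.06 for all genes. The 4 higher genes were Nupr1 (1.83 ± 0.36, limma adjusted p = 0.00635), the synthetases Cars (0.79) and Mars (0.58), and the glycine transporter Slc6a9 (0.75). The 13 genes of the synthetase list went both ways, with 2 called higher and 2 lower. The lower ones were Iars (-0.60) and Eprs (-0.49), both also called after rescaling (-0.50 and -0.39). Nupr1 was at 9.79, 8.59 and 9.29 TPM in sham prednisone and at 30.8, 61.6 and 23 TPM in MI prednisone, again without overlap. As deposited, 8 of the 14 mitochondrial chaperones and proteases were called, all lower, and after rescaling 3 were, 1 higher and 2 lower. Hspd1, the mitochondrial chaperonin, was at 171, 177 and 184 TPM in sham prednisone and 114, 113 and 133 TPM in MI prednisone. It fell by 0.56 ± 0.10 (limma adjusted p = 0.00372), and Clpx, another protease subunit, fell by 0.62. After rescaling Hspd1 was called (-0.46) and Clpx was not (-0.52). The lipoprotein receptor Vldlr, at 62.9, 67.5 and 63.4 TPM against 23.8, 21.4 and 33.9 TPM, fell by 1.29 ± 0.16 (limma adjusted p = 0.00127). Others that fell were the arginine transporter Slc7a1 (-0.97), the endoplasmic reticulum chaperone Canx (-0.79), the transcription factor Nfe2l1 (-0.76), the alanine transaminase Gpt2 (-0.74), the one-carbon enzyme Aldh1l2 (-0.72) and the stress sensor Ern1 (-0.70). After rescaling 24 were called, 9 higher and 15 lower, where 11.7% and 14.3% of genes were. The deposited count of 26 went from 7 to 28 when 1 library was left out, where 7.81% to 20% of all genes were called.

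Between prednisone and vehicle in MI hearts 35 of the 90 were called, all lower with prednisone, where 37.4% of all genes were called and 34.9% were lower. The median was -0.43 beside -0.41 for all genes. After rescaling 18 were called, 12 higher and 6 lower, where 14.6% and 14.2% of genes were, so the direction of this list's calls turned with the scale. Named genes that fell on the deposited scale include Ern1 (-0.92), Vldlr (-0.90), Nfe2l1 (-0.87), Slc7a1 (-0.85), the mitochondrial protease Yme1l1 (-0.82), Eif2ak2 (-0.81), Fgfr1 (-0.79) and the eIF2α kinase Eif2ak3 (-0.74). Without MI vehicle replicate 3, Eif2ak3 was not called (-0.37), and the other 7 were, at -1.02 to -0.63. In sham hearts limma called none of the 90, and 9 had an unadjusted limma p under 0.05, where 469 of all 13158 genes did.

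**Figure D4:**
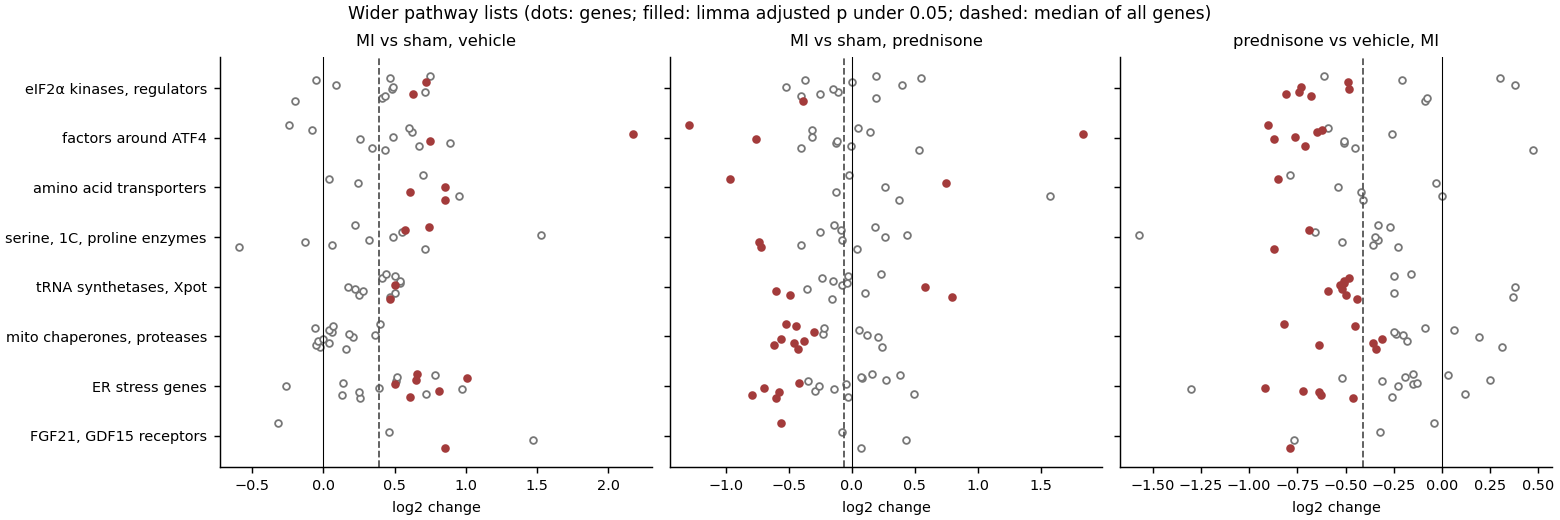
Log2 change (horizontal axes, log2 of TPM + 1, TPM as deposited) of each tested gene of the 8 wider pathway lists in 3 comparisons; dots are genes, filled dots have a limma adjusted p under 0.05 and the dashed line is the median of all genes. The rightmost filled dot in the first and second panels is Nupr1, at 2.17 and 1.83, and every filled dot of the third panel is left of 0; after rescaling 12 of 18 called genes in that comparison were higher.

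Genes whose rescaled level was most like that of each member over the 12 libraries were found by Pearson's r, among about 8115 genes averaging 5 TPM or more. The values are descriptions, since the libraries share groups and the genes were picked as the highest of many. For Gdf15 they were Ctgf and Postn, a matricellular protein of fibroblasts (r = 0.98 each; Spearman's rho 0.87 and 0.88). For Atf4 they were Eef1g and Tbcb (r = 0.98 and 0.96), and for Atf5 they were Ckb and Crtap (r = 0.98 and 0.96). Ddit3 was most like Mroh1 and Rps27l (r = 0.96 each), and Trib3 was most like Wdr83os and Bre (r = 0.96 each). Chac1 was most like Coq10b and Nom1 (r = 0.90 and 0.88). The enzymes' nearest genes were Sirt7 and Psmb9 for Asns (r = 0.92 each), Ano6 and Dgkd for Psat1 (0.95 and 0.94), and Cdkn2d and Gpsm3 for Mthfd2 (0.89 and 0.88).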

How the data were processed

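RNA of 12 mouse hearts, in 4 groups of 3 by the sample titles, was sequenced from stranded mRNA libraries, per the labels' protocols. The values the authors deposited are TPM in a table of 105129 transcript rows, and each library sums to 1000000. Trimmomatic, HISAT2, kallisto and the build mm10 are named per the submitters' processing notes; their versions, roles and the annotation release are not given in the sources used here. TPM holds no depth, so the 3 mice of a group are the only measure of precision. An exact permutation test of 3 against 3 has a smallest p of 0.1 and was not used.

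Rows were summed by symbol. Genes reaching 1 TPM in 3 or more libraries (13158) were fitted as log2(TPM + 1) with limma 3.58.1 in R 4.3.3 (trend, a mean per group, all 12 libraries), with Benjamini-Hochberg adjustment over all of them per comparison, and called at an adjusted p under 0.05. The code was tested on simulated data. Alternatives were median-ratio rescaling, no filter, a pseudocount of 0.1, only the compared groups, a replicate block, a length correction (loess span 0.5) alone or with the block, leaving out each library, and for members the most abundant transcript. The design listed tests for counts and for normalized values, and the latter applied.

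The members and lists were chosen with earlier results of these data known. Named genes are the 10 members, up to 2 called rises and 2 called falls per wider list and comparison, and for each member with a mean of at least 1 TPM the 2 most similar genes. All 97 wider genes were found, 2 under older symbols. Gene positions are from GENCODE M21 (GRCm38), lengths were found for 99.7% of tested genes, and promoter windows are from RefSeq.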

Additional observations from a re-analysis of the deposited data

Results flagged for a closer look

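Of the 90 tested genes of the wider pathway, 24 had an effect of prednisone in MI hearts that differed from that in sham hearts by limma's interaction test. All 24 differences were negative, where 20.7% of all genes were called lower and the median of all genes was -0.48. After median-ratio rescaling 7 of the 90 were called, 5 higher and 2 lower, where 10.1% of all genes were called. The 13 genes given here are at most 2 for each list, those with the most negative differences as deposited.

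Of 12 eIF2α kinases and regulators 4 were called, and those named are Eif2ak2 (-0.88, limma adjusted p = 0.038) and Eif2s1, which encodes eIF2α itself (-1.0, limma adjusted p = 0.018). Of 17 endoplasmic reticulum stress genes 6 were called, with Ern1 (-1.09) and Dnajc3 (-1.09) named. Of 12 factors around ATF4 there were 4, with Vldlr (-1.04) and Nfe2l1 (-1.02) named, and of 7 amino acid transporters there were 2, Slc7a1 (-1.02) and Slc38a2 (-0.74). Of 14 mitochondrial chaperones and proteases there were 4, with Yme1l1 (-0.92) and Afg3l2 (-0.59) named. Of 13 tRNA synthetases there were 3, with Iars (-0.88) and Eprs (-0.74) named, and of 4 receptors there was Fgfr1 (-0.78). None of the 11 serine, one-carbon and proline enzymes and none of the 9 tested stress response genes was called as deposited; Ddit3 was called higher after rescaling.

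The 2 genes called lower after rescaling were Ern1 (-0.70, limma adjusted p = 0.0384) and Eif2s1 (-0.48, limma adjusted p = 0.0458). The 5 called higher were Mars (0.93), Slc6a9 (0.88), Cars (0.82), Clpp (0.80) and Phb2 (0.57), none of which was called as deposited. Without MI vehicle replicate 3, 12 of the 13 were called as deposited, and Slc38a2 was not (-0.59).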

How the results depend on the processing

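A group size of 3 limits every count. MI against sham under vehicle called 3 members as deposited, 1 with rescaling, with the length correction, or with block and length correction, and 0 with only the compared groups; without 1 library it called 1 to 4. Under prednisone 3 became 5 with rescaling and 1 to 3 without 1 library. Prednisone against vehicle in MI gave 1 call, then 4 with rescaling, 3 with the length correction, 0 with only the compared groups and 0 to 2 without 1 library. The interaction gave 0 and, with rescaling, 1. The wider list's 18 calls under vehicle became 7 with rescaling, 4 with no filter, 0 with only the compared groups, 7 with the replicate block, 5 with the length correction, 1 with both and 0 to 47 without 1 library. Of all genes, 16% were called there as deposited, 7.44% with rescaling, 4.52% with no filter and 0.0152% with only the compared groups. The share was 8.03% with the replicate block, 5.65% with the length correction, 0.724% with both and 0.912% to 42.8% without 1 library. The list's 26 calls under prednisone became 12 with the length correction, 7 with it and the block, and 7 to 28 without 1 library. Of all genes, 16.8% were called there as deposited, 12.8% with the length correction, 7.76% with both and 7.81% to 20% without 1 library. The list's 35 calls for prednisone in MI became 18 with rescaling, 1 with only the compared groups, 9 with the length correction, 5 with it and the block, and 17 to 48 without 1 library. Of all genes, 37.4% were called there as deposited, 28.8% with rescaling and 6.14% with only the compared groups. The share was 16.5% with the length correction, 11% with it and the block, and 24.7% to 47.7% without 1 library. The list's 24 calls for the interaction became 7 with rescaling, 2 with the length correction, 0 with it and the block, and 6 to 38 without 1 library. Of all genes, 21.3% were called there as deposited, 10.1% with rescaling and 2.1% with the length correction. The share was 0.747% with it and the block, and 8.44% to 34.4% without 1 library. The cause of these shifts was not tested.

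Signs turned for changes that were not called as deposited. Under vehicle, MI against sham became, with rescaling, -0.16 for Ddit3, -0.01 for Trib3 and -0.30 for Chac1, and with the length correction, alone or with the block, -0.13, -0.16 and -0.42. Prednisone against vehicle in MI became 0.04 for Gdf15, 0.39 for Atf5 and 0.08 for Asns with rescaling, and 0.28 for Atf5 and 0.09 for Asns with the length correction, alone or with the block. The rescaled value of Atf5 was called (limma adjusted p = 0.0481). The interaction became 0.52 for Atf4, 0.22 for Atf5 and 0.25 for Chac1 with rescaling, and 0.35, 0.07 and 0.24 with the length correction, alone or with the block. By the most abundant transcript, Trib3 was at -0.00 for prednisone in MI and Mthfd2 at 0.16 for prednisone in sham.

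Leaving out 1 library, MI against sham ran from -0.09 to 0.11 for Chac1 under vehicle, and under prednisone from -0.25 to 0.04 for Chac1 and -0.05 to 0.26 for Psat1. Prednisone in MI ran from -0.74 to 0.02 for Gdf15, -0.05 to 0.37 for Atf4, -0.24 to 0.05 for Atf5 and -0.54 to 0.15 for Asns. Prednisone in sham ran from -0.17 to 0.06 for Trib3, -0.01 to 0.28 for Asns, -0.13 to 0.12 for Psat1 and -0.37 to 0.08 for Mthfd2. The interaction ran from -0.24 to 0.17 for Atf4, -0.25 to 0.04 for Chac1 and -0.68 to 0.01 for Asns.

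The replicate numbers belong to different mice, so they do not pair the libraries by animal. Of 18 same-numbered pairs, 4 deviated together (correlation over 0.1), and the correlations ran from -0.58 to 0.28 (mean -0.08). Pairs with different numbers were not compared, so a batch shared by replicate number was not tested. With the replicate block Atf4 had a limma adjusted p of 0.0607 under vehicle and 0.0566 under prednisone.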
